A study of Mus musculus with 6 samples.

Results

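A set of direct transcriptional targets of the tumour suppressor p53, chosen by name from the table of gene expression, were followed in mouse liver: Cdkn1a, Mdm2, Ccng1, Bax, Bbc3, Zmat3, Phlda3, Sesn2, Trp53inp1 and Aen. All 10 were found among the 17441 genes of the table, and all 10 passed the filter on low counts that left 13160 genes for testing. RNA-seq was run on 6 livers, 3 from wild type (WT) mice and 3 from mice labelled iKO, a whole-body knockout of Nek7 induced with tamoxifen. Both groups were sampled 10 days after tamoxifen injection, so tamoxifen exposure is common to all livers, and no label names acetaminophen, which the title of the series gives as its setting. No source used here gives the strain, sex, age or Cre driver. Beyond a number for each liver the labels describe no animal, and p-values therefore measure only the spread between these samples, which may be technical.

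The p53 protein is a transcription factor held low in unstressed cells by MDM2, which marks it for degradation. When DNA damage or another stress releases it, p53 binds pairs of a short decamer motif near its targets and raises genes that arrest the cell cycle, trigger apoptosis and, through Mdm2 and Ccng1, switch p53 off again. In adult liver most hepatocytes are quiescent, and Cdkn1a is known as the p53 target that rises in hepatocytes after injury or partial hepatectomy. Several of these genes also answer to other regulators: Bbc3 to FOXO factors, Sesn2 to ATF4 and NRF2, and Cdkn1a to components of the circadian clock.

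RefSeq promoter windows (GRCm38.p6, 250 bases before to 50 after an annotated start) were matched for 8 of the 10 members, with 12 windows in all; Zmat3 and Trp53inp1 had none. The windows are shown for the motifs they hold; since the members are known as direct p53 targets, a p53 motif near them restates how they were chosen. A match to the p53 consensus decamer, which reads the same on both strands, was present for 5 of the 8 genes, Aen, Bax, Ccng1, Cdkn1a and Mdm2, against 9.55% of the 27025 genes with a window (8.36% of all 32851 windows). The hexamer CACGTG, also its own reverse complement, is the E-box bound by CLOCK-BMAL1, MYC and USF factors. It was present for Aen, Bax and Bbc3, against 8.09% of all genes with a window (7.15% of windows). These are the 3 members that passed the test of expression described below. Both motifs were chosen after the expression values were seen, and a match describes the letters of the window only. The stretches around the matches lie before the start of their own window and are printed 5′ to 3′ on the strand of the gene, with the decamer or the hexamer in capitals.
Bax, chr7:45466899-45467129, minus strand, decamer 201 and CACGTG 9 bases before the start: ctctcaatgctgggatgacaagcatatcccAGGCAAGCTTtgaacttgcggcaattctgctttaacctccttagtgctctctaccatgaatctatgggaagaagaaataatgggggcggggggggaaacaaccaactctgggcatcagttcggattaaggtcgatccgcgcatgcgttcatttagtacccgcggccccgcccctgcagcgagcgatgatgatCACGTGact
Bbc3, chr7:16310337-16310402, plus strand, CACGTG 64 bases before the start of 1 of its 3 windows: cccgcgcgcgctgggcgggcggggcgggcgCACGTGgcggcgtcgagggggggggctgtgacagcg
Aen, chr7:78895927-78895956, plus strand, decamer 121 bases before the start: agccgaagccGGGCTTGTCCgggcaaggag
Aen, chr7:78895967-78895996, plus strand, CACGTG 79 bases before the start: cggcaagggttcCACGTGaaacctgggaaa
Cdkn1a, chr17:29090876-29090967, plus strand, decamers 73 and 51 bases before the start of the upstream window: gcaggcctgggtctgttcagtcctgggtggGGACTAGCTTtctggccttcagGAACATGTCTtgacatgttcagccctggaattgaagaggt
Mdm2, chr10:117710905-117710974, minus strand, decamer 186 bases before the start: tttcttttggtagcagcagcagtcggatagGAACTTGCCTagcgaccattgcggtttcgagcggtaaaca
Ccng1, chr11:40755432-40755501, minus strand, decamer 185 bases before the start: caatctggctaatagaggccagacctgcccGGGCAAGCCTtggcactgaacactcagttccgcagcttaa
The 2 Aen windows overlap: both stretches lie before the downstream start but not before the upstream one, and the same decamer begins 10 bases after that upstream start. The Bax window holds another hexamer 35 bases after the start. No decamer or hexamer was found in the windows of Phlda3 and Sesn2, and no decamer in those of Bbc3.

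Library totals ran from 18139507 to 19911983 expected counts. Nek7 itself, the labelled target, averaged 44.1 ± 10.1 CPM across WT and 38.0 ± 10.6 CPM across the livers labelled iKO (SD, n = 3 per group). CPM are TMM-normalized counts scaled to a common library size. The log2 fold change was -0.22 (SE 0.23, edgeR adjusted p = 0.541), so its gene total in CPM did not set the groups apart. In TPM, which also scales by transcript length, Nek7 read 21.3, 20.4 and 15.7 in WT 1, 2 and 3. It read 13.8, 13.1 and 13.0 TPM in iKO 1, 2 and 3, without overlap. On that scale the median log2 fold change of all genes was -0.24, and Nek7 was called in 0 of 18 other settings. No source used here says which part of Nek7 is deleted, and the group is called by its label throughout. Ddx3y and Kdm5d, both Y-linked, together gave 573 to 1113 expected counts in 4 libraries and 0 in WT 2 and WT 3. Eif2s3y, also Y-linked, gave 0.266 and 0.193 CPM in WT 2 and WT 3 and 14.1 to 37.1 CPM in the others. Y-linked Uty, with counts not whole in any library, gave 17.8 and 11.4 CPM there, against 17.6 to 33.0 CPM. Below, Y-linked reads means reads of Ddx3y and Kdm5d. The contrast thus mixes apparent sex with the label. Between the groups 2024 of 13160 genes (15.4%) were called, that is, passed an adjusted p of 0.05; relative to WT, 962 (7.31%) were higher and 1062 (8.07%) were lower. Hepatocyte markers were abundant in every library, with sums of 100100 to 113300 CPM for WT and 103500 to 115400 CPM for those labelled iKO. Alb alone gave 76020 to 91160 CPM in WT and 66390 to 83260 CPM in iKO, so the sums say little of the other markers.

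The 10 p53 targets did not move as a block. Of the 10, Bax and Aen were called higher, Bbc3 was called lower and 7 were not called, against 15.4% called among all tested genes. An unadjusted p under 0.05 was reached by 5 of the 10, beside 33.1% of all tested genes. The median log2 fold change of the 10 was 0.51, beside -0.02 over all tested genes, with 6 positive and 4 negative. In 5 members, Bax, Bbc3, Zmat3, Phlda3 and Aen, the 3 livers of one group did not overlap those of the other, as in 39% of all tested genes. The classic readouts of p53 activity, Cdkn1a, Mdm2 and Ccng1, overlapped between the groups.

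**Figure D1:**
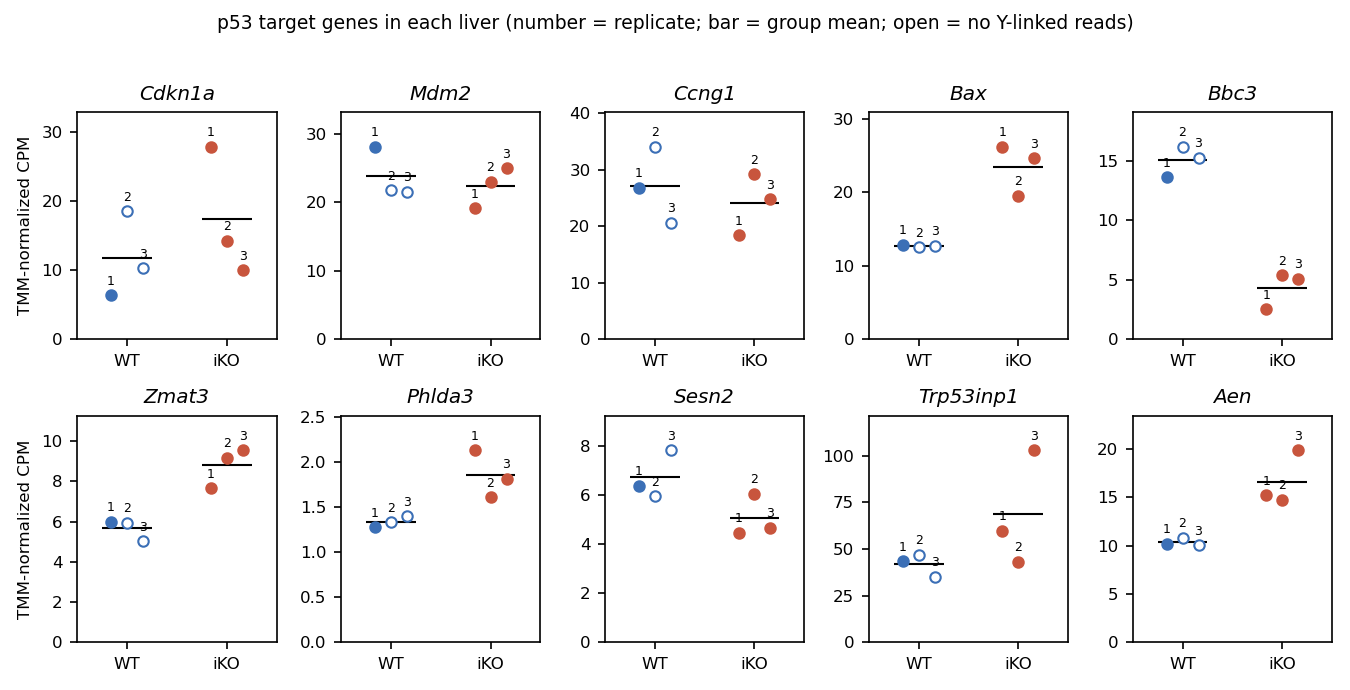
Level of each of the 10 p53 targets in each liver, in TMM-normalized CPM (linear axis from 0), with WT in blue and iKO in red. Numbers give the replicate, horizontal bars the mean of 3 livers, and open points WT 2 and WT 3, the libraries without Ddx3y or Kdm5d reads. Bax, Zmat3, Phlda3 and Aen lie higher and Bbc3 lower in all iKO livers than in any WT liver.

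Bbc3 (gene ID 170770) encodes PUMA, a BH3-only protein that neutralises the anti-apoptotic BCL2 proteins and is among the strongest killers downstream of p53. It read 13.6, 16.2 and 15.3 CPM in WT 1, 2 and 3, and 2.53, 5.36 and 5.08 CPM in iKO 1, 2 and 3. Every liver labelled iKO was below every WT liver, and iKO 1 was the lowest. The means were 15.0 ± 1.29 and 4.33 ± 1.56 CPM (SD, n = 3 each), 3.45-fold lower, with a log2 fold change of -1.79 (SE 0.27, edgeR adjusted p = 0.00407). Among all tested genes this change stood at the 1.4th percentile. Leaving out any of the 6 libraries kept the call. When Y-linked reads entered as a term, the log2 fold change was -1.65 and the adjusted p 0.0633, and in the 4 libraries with such reads -1.65 and 0.0755. Expected counts of Bbc3 were not whole in 4 libraries, since RSEM splits reads that match several places, and the level is less certain.

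Bax (gene ID 12028) encodes the pore-forming protein of the outer mitochondrial membrane that BH3-only proteins such as PUMA release for action. Its 3 WT livers were nearly identical, at 12.9, 12.6 and 12.7 CPM, and iKO 1, 2 and 3 stood at 26.2, 19.6 and 24.7 CPM. All livers labelled iKO exceeded all WT livers. The means, 12.7 ± 0.144 and 23.5 ± 3.49 CPM (SD, n = 3 each), differed 1.85-fold (log2 fold change 0.89, SE 0.16, edgeR adjusted p = 0.0096). Bax has the shortest transcripts of the 10, with an effective length of 819 bases implied by the deposited counts and FPKM, and across all genes fold changes fell with length (Spearman's rho -0.35 across genes, which are not independent replicates). With a length trend in each library taken out, the log2 fold change of Bax was 0.45 and the adjusted p 0.0705. The call also ended, at much the same log2 fold change, without WT 2 (0.91, adjusted p = 0.0517), with the term for Y-linked reads (0.87, 0.154) and in the 4 libraries with such reads (0.88, 0.241). On the TPM scale it was 0.54 (adjusted p = 0.129).

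Aen (gene ID 68048) encodes an exonuclease that takes part in the breakdown of nuclear DNA during p53-driven apoptosis. It measured 10.2, 10.8 and 10.1 CPM in WT 1, 2 and 3, against 15.2, 14.7 and 19.9 CPM in iKO 1, 2 and 3. The groups did not overlap in CPM, though they did in TPM, and iKO 3 was the highest. The means were 10.4 ± 0.415 and 16.6 ± 2.84 CPM (SD, n = 3 each), 1.60-fold apart (log2 fold change 0.68, SE 0.17, edgeR adjusted p = 0.0301). This call held in only 2 of the 6 fits that left out 1 library, those without iKO 1 and without iKO 2. It ended without WT 1 (log2 fold change 0.67, adjusted p = 0.0604), WT 2 (0.74, 0.101), WT 3 (0.66, 0.0816) or iKO 3 (0.56, 0.0954). With the Y-linked term (0.70, 0.245) and in the 4 libraries with such reads (0.71, 0.352) it also ended, at a log2 fold change no smaller than with all libraries. The length correction, in contrast to Bax, gave a larger value of 0.93 (adjusted p = 0.00925). On the log2(FPKM + 1), log2(FPKM + 0.1) and log2(TPM + 1) scales Aen was not called (adjusted p = 0.283, 0.292 and 0.553), and with replicate number as a block the adjusted p was 0.0549.

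The remaining members linked to apoptosis or survival were not called. Trp53inp1, a nuclear protein that aids p53 phosphorylation and also takes part in autophagy, measured 43.5, 46.9 and 35.1 CPM in WT 1, 2 and 3, against 60.0, 43.2 and 103 CPM in iKO 1, 2 and 3. The high mean of the second group, 68.7 ± 30.9 CPM against 41.9 ± 6.07 CPM (SD, n = 3 each), came with 1 liver, iKO 3, well above the others and with iKO 2 inside the WT range (log2 fold change 0.71, SE 0.29, edgeR adjusted p = 0.128). Without iKO 2 it was called (0.98, adjusted p = 0.0429), and without iKO 3 the log2 fold change was 0.33. Phlda3, which competes with AKT for membrane lipids, was the least abundant member by CPM, at 1.27, 1.33 and 1.40 CPM in WT 1, 2 and 3, against 2.13, 1.61 and 1.82 CPM in iKO 1, 2 and 3. Its groups did not overlap in CPM but did in TPM, and its log2 fold change was 0.46 (SE 0.31, edgeR adjusted p = 0.323).

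Zmat3, a zinc finger protein that binds RNA and steers splicing, lay just outside the threshold. It measured 6.001, 5.95 and 5.03 CPM in WT 1, 2 and 3, against 7.66, 9.17 and 9.54 CPM in iKO 1, 2 and 3, without overlap. The log2 fold change was 0.64 (SE 0.20, edgeR adjusted p = 0.0553). It passed with RLE size factors (adjusted p = 0.0484), with DESeq2 (0.04) and after the length correction (log2 fold change 0.93, adjusted p = 0.0117), Zmat3 having the longest transcripts of the 10, at 7768 bases. On the log2(FPKM + 1), log2(FPKM + 0.1) and log2(TPM + 1) scales its log2 fold change was 0.21, 0.40 and 0.19, and it was not called. The added 1 shrinks the change of a gene this low (1.37 TPM on average in WT, 1.73 TPM in iKO). Expected counts of Zmat3 were not whole in any of the 6 libraries, so its level is less certain.

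Cdkn1a and Sesn2, members of the arrest and stress arms, were not called, and their groups overlapped in CPM. Cdkn1a, which encodes the CDK inhibitor p21, measured 6.37, 18.5 and 10.3 CPM in WT 1, 2 and 3, against 27.9, 14.3 and 10.0 CPM in iKO 1, 2 and 3. In CPM the highest level was in iKO 1 and the lowest in WT 1, while iKO 3 lay between WT 1 and WT 3. In TPM the highest was WT 2, at 21.3 against 16.9 in iKO 1. The TPM means were 12.3 in WT and 13.0 in iKO. The fitted log2 fold change of 0.56 (SE 0.50, edgeR adjusted p = 0.481) had a 95% interval from 0.642-fold to 3.38-fold, the widest among the 10. Without iKO 1 it was 0.05, and with the term for Y-linked reads 1.44 (adjusted p = 0.327). Sesn2, a stress sensor that restrains mTORC1, measured 6.37, 5.95 and 7.83 CPM in WT 1, 2 and 3, against 4.46, 6.06 and 4.67 CPM in iKO 1, 2 and 3. In CPM only iKO 2 reached into the WT range, while in TPM no iKO liver did (3.96 to 5.48 in WT, 1.93 to 3.87 in iKO). The log2 fold change was -0.41 (SE 0.23, edgeR adjusted p = 0.243).

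The feedback genes were near parity. Mdm2, the ubiquitin ligase that degrades p53, measured 28.1, 21.8 and 21.6 CPM in WT 1, 2 and 3, against 19.1, 23.1 and 25.0 CPM in iKO 1, 2 and 3. Its log2 fold change of -0.09 (SE 0.17, edgeR adjusted p = 0.756) had a 95% interval from 0.718-fold to 1.23-fold, so a 2-fold change in either direction lay outside it. Ccng1, cyclin G1, which recruits a phosphatase to MDM2, measured 26.8, 34.1 and 20.6 CPM in WT 1, 2 and 3, against 18.4, 29.2 and 24.8 CPM in iKO 1, 2 and 3 (log2 fold change -0.17, SE 0.23, adjusted p = 0.63; 95% interval 0.626-fold to 1.26-fold). The sign of both changes turned in some alternative settings. The effective length of Mdm2 implied by counts and FPKM, which depends on its mix of transcripts, was 3332 to 3380 bases in WT and 3116 to 3300 bases in the livers labelled iKO. This small difference did not overlap between the groups, and expected counts of Mdm2 were not whole in any library. For Cdkn1a and Ccng1 the implied length varied by at most 2 bases between libraries.

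**Figure D2:**
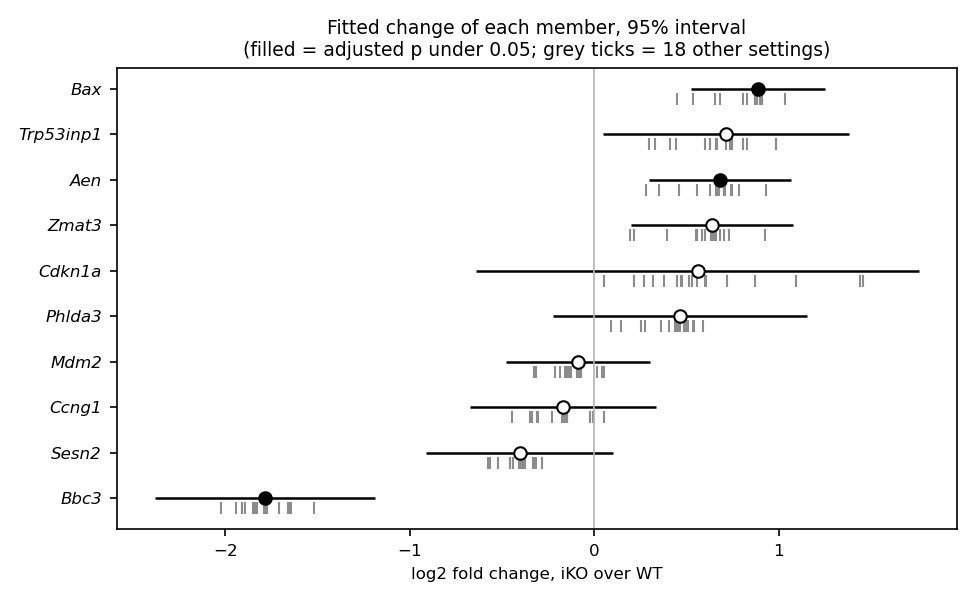
Fitted log2 fold change (iKO over WT) of each member with its 95% interval from the fit of all genes; filled points passed an adjusted p of 0.05, and grey ticks under each point show the fold change in 18 other settings. Bbc3 lies at -1.79 with all ticks below -1.5, Bax at 0.89 and Aen at 0.68 with all ticks above 0, while ticks of Mdm2 and Ccng1 fall on both sides of 0.

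Levels can be compared between genes only per transcript length, on the TPM scale. In WT, Bax was the highest member at 28.9 ± 3.76 TPM and Bbc3 the next at 16.6 ± 3.12 TPM (SD, n = 3 each), and their ranges were separate. Bbc3, Ccng1, Trp53inp1, Mdm2 and Cdkn1a followed in that order, and no neighbouring pair among these 5 had separate ranges. Sesn2 at 4.78 ± 0.766 and Aen at 4.01 ± 0.72 TPM came below Cdkn1a, and Phlda3 at 1.76 ± 0.278 and Zmat3 at 1.37 ± 0.248 TPM were lowest (SD, n = 3 each). In the livers labelled iKO, Bax again led, at 42.6 ± 8.08 TPM, while Bbc3 moved from rank 2 to rank 7, at 3.95 ± 1.94 TPM (SD, n = 3 each), between Aen and Sesn2. Below Bax no neighbouring pair had separate ranges in that group.

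A ratio of 2 genes inside a library does not depend on the scaling of the library, but it keeps any trend with transcript length. Effective lengths were 819 bases for Bax and 1692 for Bbc3. After the length correction their log2 fold changes were 0.45 and -1.91. The ratios below were chosen after the values were seen, and they show unequal change between genes, not which gene changed. The TPM ratio of Bax to Bbc3 was 1.88, 1.67 and 1.71 in WT and 21.2, 7.96 and 10.1 in the livers labelled iKO, without overlap. Bcl2l1, which encodes the anti-apoptotic BCL-XL that restrains BAX and binds PUMA, rose with Bax, from 38.5 ± 2.74 to 71.6 ± 22.04 CPM (SD, n = 3 each; log2 fold change 0.89, SE 0.22, edgeR adjusted p = 0.0258). That call ended without WT 1, WT 2 or WT 3 (log2 fold change 0.84, 0.93 and 0.94; adjusted p = 0.0613, 0.0962 and 0.057). Nor did it pass with the Y-linked term (1.00, 0.199), in the 4 libraries with such reads (1.01, 0.297) or on the TPM scale (0.55, 0.115), and expected counts of Bcl2l1 were not whole in 5 libraries. The ratio of Bax to Bcl2l1 averaged 0.999 ± 0.0757 in WT and 1.00 ± 0.197 in those labelled iKO (SD, n = 3 each), and the 2 ranges overlapped. The ratio of Bbc3 to Bcl2l1 was 0.573, 0.595 and 0.542 in WT and 0.0376, 0.129 and 0.118 in the livers labelled iKO.

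**Figure D3:**
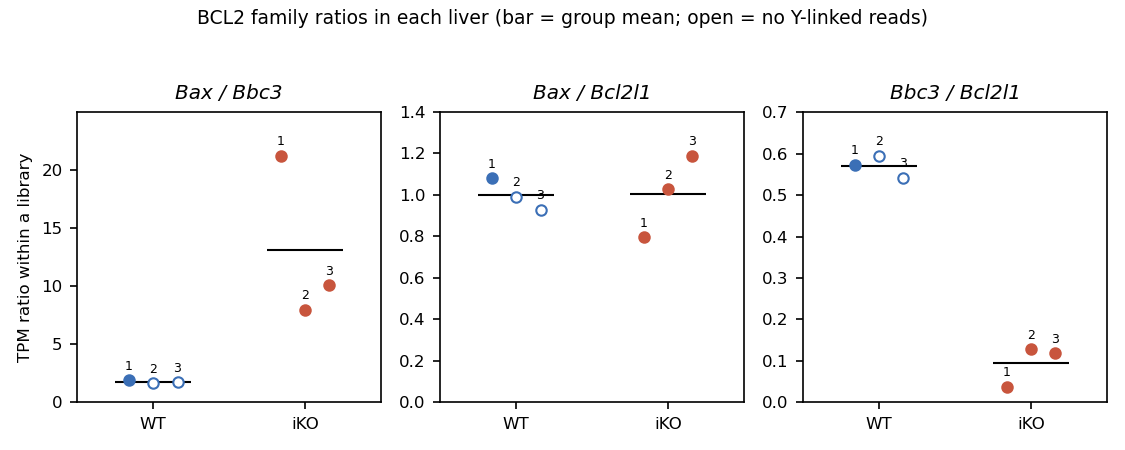
Ratio of TPM values of 2 genes within each liver (linear axes from 0, WT blue, iKO red). Numbers give the replicate, bars the mean of 3 livers, and open points the libraries without Ddx3y or Kdm5d reads. Bax over Bbc3 runs from 1.67 to 1.88 in WT and from 7.96 to 21.2 in iKO, Bax over Bcl2l1 overlaps, and Bbc3 over Bcl2l1 is lower in every iKO liver.

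Among 13 tested partners of BAX and PUMA in the BCL2 family, 1 rose (Bcl2l1), 1 fell (Bmf) and 11 were not called, a share of 15.4%, and the median log2 fold change was 0.06. Bmf, another BH3-only gene, went from 15.1, 18.2 and 23.1 CPM in WT to 3.00, 4.07 and 4.62 CPM in the livers labelled iKO. Its log2 fold change of -2.26 (SE 0.23, edgeR adjusted p = 0.000741) was called in all 18 alternative settings.

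Upstream of the targets, Trp53 itself measured 24.8, 24.8 and 24.0 CPM in WT 1, 2 and 3, against 36.5, 28.8 and 35.0 CPM in iKO 1, 2 and 3. The groups did not overlap in CPM but did in TPM. The log2 fold change of 0.45 (SE 0.15, edgeR adjusted p = 0.0683) did not pass, except without iKO 2 (adjusted p = 0.0496). Transcript level says little of p53 activity, which is set mainly through protein stability. Mdm4, which masks the activation domain of p53, stood at 41.3 ± 6.71 CPM in WT against 48.4 ± 7.60 CPM (SD, n = 3 each; edgeR adjusted p = 0.408). Of 21 tested genes of p53 and its regulators 2 rose, 1 fell and 18 were not called, a share of 14.3%, with a median of 0.10. The coactivator gene Crebbp rose by 0.63 (SE 0.18) and Ppp1r13l, which encodes the p53 inhibitor iASPP, by 0.76 (SE 0.19), while Hipk2, a kinase that phosphorylates p53 for apoptosis, fell by 0.63 (SE 0.14) on the log2 scale. Each of these 3 calls held in at most 2 of the 6 fits that left out 1 library, with adjusted p up to 0.608 for Crebbp, 0.377 for Ppp1r13l and 0.302 for Hipk2 over all settings, and expected counts of Hipk2 were not whole in any library.

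Among 40 other tested p53 targets, 6 rose, 2 fell and 32 were not called, a share of 20.0% beside 15.4% for all genes, and the median log2 fold change was 0.08. Plk3, a stress polo-like kinase, had the largest rise, from 19.9, 11.6 and 17.3 CPM in WT to 409, 246 and 128 CPM in the livers labelled iKO. Sertad1, a regulator of CDK4, went from 2.93 ± 0.434 to 8.65 ± 1.498 CPM (SD, n = 3 each). The calls of Plk3 and Sertad1 held in all 6 fits that left out 1 library, but ended with the Y-linked term (log2 fold change 3.71, adjusted p = 0.0629, and 1.70, 0.0662) and in the 4 libraries with such reads (3.73, 0.0923, and 1.71, 0.0681). Those of Rps27l (0.87, SE 0.23), Tob1 (0.84, SE 0.21), Fdxr (0.71, SE 0.19), Plk2 (-1.14, SE 0.30) and Trp53i11 (-1.14, SE 0.31), on the log2 scale, each held in only 2. In CPM, though not in TPM, the groups overlapped for Trp53i11, whose counts were not whole in any library. After the length correction Rps27l stood at 0.21 (adjusted p = 0.414). Without WT 2 or without WT 3 the count was 3. With the Y-linked term, and in the 4 libraries with such reads, it was 1. Sesn1, the paralogue of Sesn2, had a log2 fold change of -0.73 (SE 0.25, edgeR adjusted p = 0.0734), and the antiproliferative Btg2 one of 1.89 (SE 0.58, adjusted p = 0.0736), with 191, 98.3 and 38.1 CPM in iKO 1, 2 and 3. In CPM the highest liver was iKO 1 for Plk3, Btg2 and Cdkn1a, but also for Bax and Bcl2l1. In TPM the highest liver for Cdkn1a was WT 2.

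**Figure D4:**
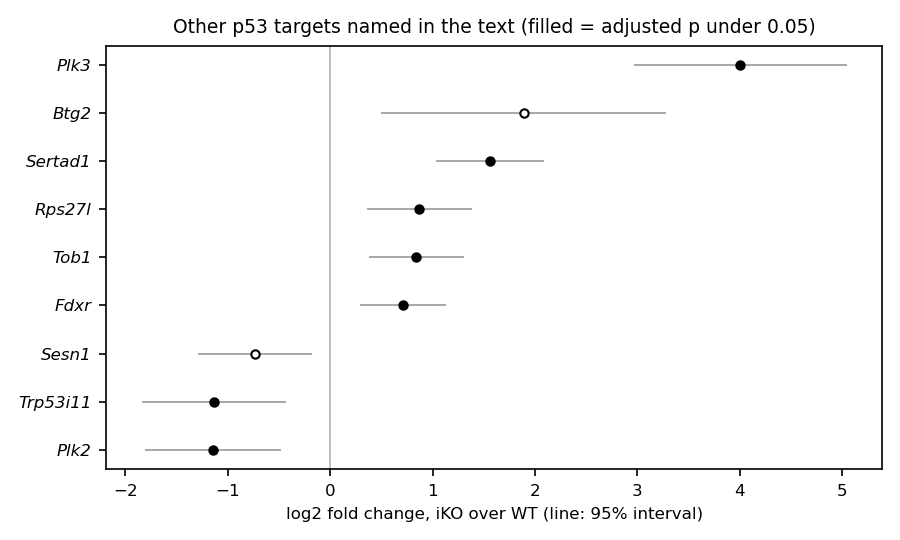
Fitted log2 fold change (iKO over WT) with 95% interval for the 9 other p53 targets named in the text; filled points passed an adjusted p of 0.05. Plk3 lies farthest to the right, at 4.01, the open points are Btg2 and Sesn1, and Plk2 and Trp53i11 lie at the lower end, at -1.14 each.

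The partners that p21 acts on showed 1 call among 11 tested CDK and cyclin genes (9.09%, median -0.16). Ccne1, cyclin E1, measured 0.319, 0.178 and 0.193 CPM in WT 1, 2 and 3, against 2.06, 2.14 and 3.16 CPM in iKO 1, 2 and 3, low levels in both groups (edgeR adjusted p = 0.00202, but 0.0641 with the Y-linked term). Of the 4 other CDK inhibitor genes tested, 0 were called by edgeR's quasi-likelihood test, DESeq2 or limma-voom, and 1 had an unadjusted p under 0.05 by edgeR. Of 9 proliferation genes only Rrm2 was called (11.1%, beside 15.4% for all genes). It rose from 2.42 ± 0.221 to 4.97 ± 0.17 CPM (SD, n = 3 each, edgeR adjusted p = 0.0215). The other 8, low in both groups, had a negative log2 fold change but were not called. The median of the 9 was -0.61, beside -0.02 over all tested genes. With the Y-linked term it was -0.28, beside 0.005 over all genes. Whether proliferation differed was not tested. The Rrm2 call held in 3 of the 6 fits that left out 1 library and ended in 8 of 18 settings, among them the Y-linked term (log2 fold change 1.06, adjusted p = 0.203).

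Of the other regulators named above, ATF4, FOXO factors and the clock are covered by lists, and NRF2 is not. FOXO targets share a list with glucocorticoid targets, and Per1 is counted both there and among the clock genes. The integrated stress response list holds Atf4 and other genes of that response, among them its kinase genes Eif2ak3 and Eif2ak4. Within this list Ddit3 (0.88, SE 0.23) and Ppp1r15a (1.17, SE 0.28) rose, Eif2ak4 (-0.74, SE 0.19) fell and 7 of 10 were not called. Expected counts of Ddit3 were not whole in any library. Of the 6 fits that left out 1 library the calls held in 2 for Ddit3, 3 for Ppp1r15a and 0 for Eif2ak4, and all 3 ended with the Y-linked term (log2 fold change 0.73, 0.95 and -0.77; adjusted p = 0.322, 0.305 and 0.21). Of 11 glucocorticoid and FOXO targets 7 rose and 0 fell (63.6%, beside 15.4% for all genes). Among them Fkbp5 went from 27.7 ± 3.51 to 129 ± 4.23 CPM, and Pck1 from 891 ± 151 to 3535 ± 586 CPM (SD, n = 3 each). Of 12 clock genes 6 rose and 3 fell (75.0%). Dbp went from 1.44 ± 0.756 to 128 ± 24.6 CPM and Arntl, which encodes BMAL1, from 31.4 ± 0.962 to 2.68 ± 1.15 CPM (SD, n = 3 each). With the Y-linked term 3 of the 11 and 5 of the 12 were called. Fkbp5, Dbp and Arntl were called in all 18 alternative settings and Pck1 in 16. No source used here gives the hour of collection, and the part of these regulators in the changes of Bbc3, Bax and Aen was not tested.

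In whole tissue, fewer cells of a type and less RNA per cell cannot be told apart, and markers of several cell types differed along with Bbc3, Bax and Aen. For comparison, 8.07% of all tested genes were called lower and 7.31% higher. Of 8 stellate cell and fibroblast markers 6 fell. Together the 8 summed to 298 to 498 CPM in WT and 138 to 176 CPM in the livers labelled iKO. Kupffer cell and macrophage markers, with 5 of 7 lower, summed to 271 to 494 and 156 to 216 CPM, and endothelial markers, with 3 of 7 lower, to 145 to 233 and 66.2 to 131 CPM. Neutrophil markers, with 5 of 7 lower, summed to 25.7 to 119 and 10.4 to 31.5 CPM. With the Y-linked term the calls became 3 for stellate cell, 0 for Kupffer cell, 0 for endothelial and 1 for neutrophil markers, with 1 Kupffer cell and 1 endothelial marker at an unadjusted p under 0.05. The medians of the 4 lists moved from -1.67, -1.15, -0.83 and -3.06 to -0.92, -0.48, -0.28 and -1.69 on the log2 scale, and the 4 libraries with Y-linked reads gave the same counts of calls. None of the markers in these 4 lists was at 0 in all libraries. Of 7 hepatocyte markers 2 rose. T and B cell markers had 0 of 6 called by edgeR, DESeq2 or limma-voom, with 0 at an unadjusted p under 0.05, and cholangiocyte markers 0 of 6 by the same 3 tools, with 1 at an unadjusted p under 0.05. The part of cell composition in the member changes was not tested.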

How the data were processed

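The submitters' processing notes list the build mm9 and the tools RSEM 1.2.12, HISAT2 2.0.4 and Bowtie2 2.2.5; no source used here states whether counting was stranded. The authors deposited 1 table with expected counts, FPKM (scaled by depth and transcript length) and TPM (scaled to a common total) for 6 libraries. After rounding, the deposited expected counts were fitted in R 4.3.3 by edgeR 4.0.16, with filterByExpr, TMM factors (0.780 to 1.18), robust quasi-likelihood F test on 3 WT against 3 iKO libraries, Benjamini-Hochberg adjustment over all 13160 tested genes, threshold 0.05. CPM used TMM factors, and each SE was taken as the size of the log2 fold change divided by the root of its F. Effective length is the count divided by FPKM and total counts, where FPKM reached 0.2. Alternatives used limma 3.58.1 and DESeq2 1.42.0. By chi-square per degree of freedom between pairs of libraries (38.6 to 308), no 2 were alike within sampling noise. The closest pairs were WT 2 with WT 3 (38.6) and iKO 2 with iKO 3 (41.8). WT 1 stood at 184 and 202 from WT 2 and WT 3. From iKO 1, 2 and 3 it stood at 165, 167 and 238.

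The members and gene lists were chosen with earlier results of these data known. All 10 members are named, and from each other list up to 4 called genes per direction by size of change, plus Nek7 and, whatever their test, a few fixed genes (here Trp53, Mdm4, Sesn1, Btg2 and Ccne1). Of the other p53 targets that rose, 1 is counted but not reported here. Fdxr, Tob1 and Alb, outside this rule, were named after their values were seen, and the clock and glucocorticoid examples were picked from the genes it allows. On simulated counts for this comparison (12985 genes) the fit called 20 of 100 genes set to 2-fold and 88 of 100 set to 4-fold. Of these, 0 had the opposite sign, and 6 of 114 calls were false. Only these genes were changed and no sex difference was simulated. The rates need not carry over to this contrast, in which 15.4% of genes were called. Sequences are from RefSeq tables of GRCm38.p6, a build other than mm9, and were matched by gene ID and symbol; the Aen stretches, cut to 30 bases, overlap an exon of GENCODE vM21.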

Additional observations from a re-analysis of the deposited data

How the results depend on the processing

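The alternatives comprised DESeq2, RLE factors, upper-quartile factors, a filter of only 1 count, limma-voom, limma-trend on log2(FPKM + 1), log2(FPKM + 0.1) and log2(TPM + 1), a replicate block, a Y-linked term, a fit to the 4 libraries holding Y-linked reads, a length correction (lowess, span 0.3) and leaving out each library. Bbc3 stayed lower (-2.03 to -1.52) and Bax (0.45 to 1.03) and Aen (0.28 to 0.93) higher in all 18, and were called in 16, 13 and 8 of them. Of the 10 members, 1 was called on the TPM scale, 0 with the Y-linked term and 0 in the 4 libraries (edgeR; 3 at an unadjusted p under 0.05 in each), and 1 to 4 when a library was left out, with 1 without WT 2. The 8 other targets became 1 with the Y-linked term, 1 in the 4 libraries, 5 after the length correction and 3 to 7 when a library was left out. The 2024 calls over all genes became 1277 on the TPM scale, 184 with the Y-linked term, 143 in the 4 libraries and 491 to 1840 when a library was left out (491 without WT 2, 908 without WT 3, 946 without iKO 3). Both fits on Y-linked reads rest on WT 1 as the WT library that holds them, which is assumed to vary like the others. By the chi-square values above, WT 1 lay farther from WT 2 and WT 3 than from iKO 1 and iKO 2. Of the calls 47.5% were higher, against 31.1% and 31.6% on the FPKM scales 17.1% on the TPM scale and 39.9% with upper-quartile factors; on the FPKM and TPM scales the median of all genes lay at -0.12, -0.20 and -0.24, and Aen, at 0.35, 0.46 and 0.28, and Bax, at 0.66, 0.68 and 0.54, lay above it. Signs turned for genes near 0: Mdm2 (0.042 after the length correction, -0.16 to 0.05 when a library was left out), Ccng1 (-0.34 to 0.05 when a library was left out), Nek7 (0.019 after the length correction) and Mdm4 (-0.078 on the TPM scale).

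No label says whether the replicate numbers pair the libraries. Deviations of same-numbered libraries correlated at 0.207, 0.218 and 0.046, and 3 of 6 libraries correlated best with their own number. With so few libraries these values cannot settle whether they are paired. With the replicate block 1710 genes, 2 of the 10 members (Bax and Bbc3) and 8 of the other targets were called.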
